A study of Mus musculus with 4 samples.

Results

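The myogenic cells of D2-*mdx* mice were compared with those of DBA mice, which carry the same background without the *Dmd* mutation. Cells were sorted from hindlimb muscle as positive for α7-integrin and VCAM1 and negative for the lineage markers Cd11b, Sca1, Cd45 and Cd31. The 2 mice of each strain, male by the study's methods, were pooled before 1 droplet library was made from them with the 10X Genomics 3′ V3.1 kit. By the labels the DBA mice (strain DBA/2) were 13 weeks old and the D2-*mdx* mice (strain D2.B10-Dmdmdx) 14 weeks old, and no treatment is named for either. A droplet barcode was taken as a myogenic cell when it had 1000 to 5000 detected genes, at most 8% of mitochondrial unique molecular identifiers (UMIs), and at least 2 UMIs summed over *Pax7*, *Myf5*, *Myod1* and *Myog*. This rule kept 2857 of 3539 DBA barcodes and 4403 of 6782 D2-*mdx* barcodes, 7260 of the 27425 barcodes of the series. For each gene, UMIs were added up across the cells of a library, divided by all UMIs of those cells and multiplied by 1000000 to give the CPM level used below.

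Satellite cells are the stem cells of skeletal muscle. They rest under the basal lamina of the fibre and express the transcription factor PAX7, and after injury they enter the cell cycle, express MYOD1, and then either return to rest or express MYOG, leave the cycle and fuse into fibres. Dystrophin, which *Dmd* encodes, ties the actin of the fibre to the membrane complex that binds the matrix. Its loss leads to repeated rounds of fibre damage and repair, and the D2 background is known for a more severe course than the B10 background of the classic *mdx* strain.

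With 1 library a strain there was no replicate, so no test was made. Every interval below is a 95% interval for counting error only and leaves out the spread between mice and between library preparations. Genotype, age and library preparation could therefore not be told apart. The D2-*mdx* cells were shallower, with a median of 6741 UMIs and 2335 genes a cell against 10354 UMIs and 3128 genes in DBA. Summed over cells the depths were closer, at 32323902 UMIs in DBA and 37944425 in D2-*mdx*. Cells near the limit of the rule were more common in D2-*mdx*, where 286 cells had exactly 2 UMIs of the rule genes and 392 barcodes had 1. In DBA these numbers were 9 and 65. The libraries shared 4 barcodes among these cells.

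Transcripts of the sorting markers were counted in the cells. *Itga7* (α7-integrin) was at 80.7 CPM in DBA and 74.7 CPM in D2-*mdx*, and *Vcam1* at 349 CPM in DBA and 526 CPM in D2-*mdx*. In cells with pericyte markers and no UMI of the rule genes, *Itga7* was at 118 CPM in DBA and 104 CPM in D2-*mdx*. It thus does not set the myogenic cells apart. Of the surface markers used to exclude cells, *Ly6a* (Sca1) was at 0.340 CPM in DBA and 17.7 CPM in D2-*mdx*, *Itgam* (Cd11b) at 0.557 CPM in DBA and 2.95 CPM in D2-*mdx*, *Ptprc* (Cd45) at 2.69 CPM in DBA and 5.75 CPM in D2-*mdx* and *Pecam1* (Cd31) at 2.29 CPM in DBA and 5.32 CPM in D2-*mdx*. All 4 were low and higher in D2-*mdx*, and only *Ly6a* reached 10 CPM. Markers of other cells were also present, and more so in D2-*mdx*. The 9 white blood cell markers summed to 175 CPM in DBA and 817 CPM in D2-*mdx*, of which 83.1% lay in the 50 cells highest in them. *Lyz2* led this list in D2-*mdx* with 289.5 CPM. The 8 pericyte markers summed to 213 and 380.5 CPM, the 7 glial markers to 73.1 and 152.6 CPM, and the 7 endothelial markers to 7.58 and 29.7 CPM. Transcripts of mature fibres, which can enter droplets as free RNA, summed to 31.8 CPM in DBA and 302 CPM in D2-*mdx*, and those of erythrocytes to 279 and 623 CPM. Lists for smooth muscle and fibroblasts did not discriminate, because *Acta2* and *Dpt* were carried by the myogenic cells at large.

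Of 8629 genes with at least 10 CPM in either library, 538 were at least 2-fold higher in D2-*mdx*, 6.23% of those tested, and 434 were at least 2-fold lower, 5.03%. In either direction this made 11.3%. A gene that reached 10 CPM in just 1 library was bound to differ in that direction, and 518 genes did so in D2-*mdx* alone and 598 in DBA alone. When both libraries had to reach 10 CPM, a limit added after the data were seen, 7513 genes were left, of which 236 were at least 2-fold higher (3.14%) and 247 lower (3.29%). Lists and members below were chosen with earlier results of these data known, so their counts are a description. The counts of each gene list below are to be set beside these shares. In a short list, having no gene beyond 2-fold is near them. The median log2 ratio of D2-*mdx* over DBA across all tested genes was -0.05. At least 4-fold higher were 193 genes and at least 4-fold lower 91. Beyond 8-fold the numbers were 99 and 24, so the largest differences lay mostly on the higher side. The 2-fold limit says how large a difference was, not that it exceeds the spread between mice, which these data cannot give.

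**Figure D1:**
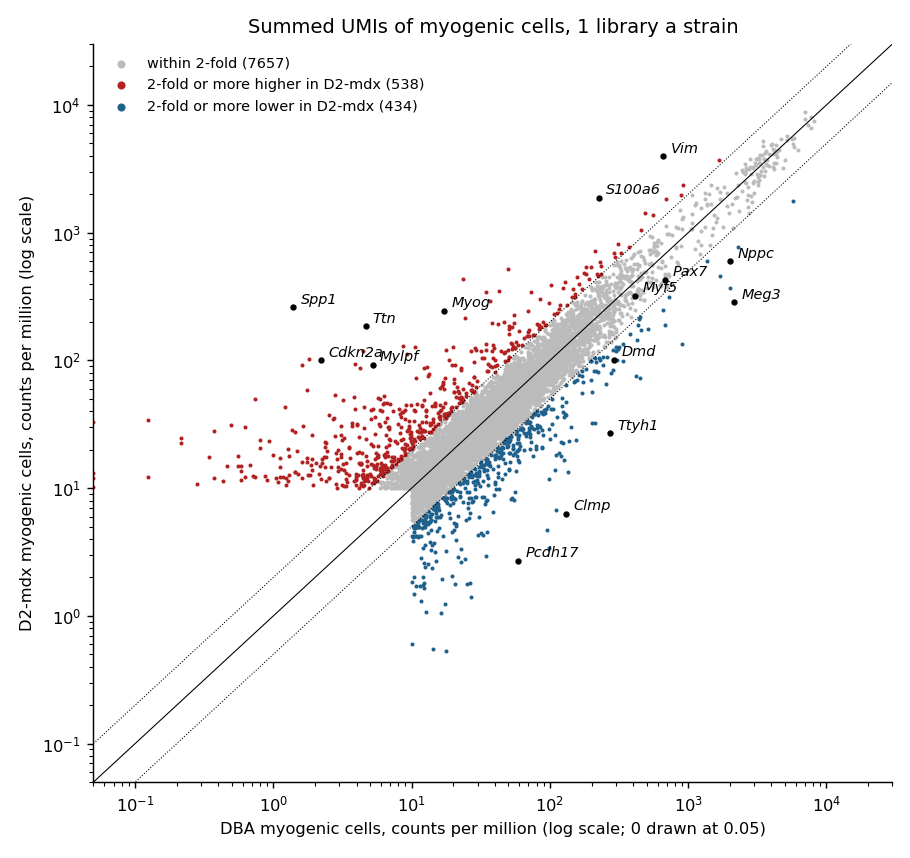
Each point is a gene, placed by its CPM in DBA myogenic cells (x axis) and in D2-*mdx* myogenic cells (y axis), both on log scales; the solid line marks equal levels and the dotted lines 2-fold. Red points are the 538 genes at least 2-fold higher in D2-*mdx* and blue points the 434 at least 2-fold lower, with *Spp1* and *Meg3* far from the line on either side.

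*Dmd* itself (mm10 chrX:82948870-85206141) was lower in the mutant but still counted. It stood at 291 CPM in DBA and 101 CPM in D2-*mdx*, a log2 ratio of -1.53 with an interval of -1.58 to -1.47. The *mdx* allele is a point mutation that leaves the gene in place, so this value is a level of transcript and not a check of genotype. Of 10 tested members of the dystrophin-glycoprotein complex, *Dmd* was the only one beyond 2-fold. Utrophin (*Utrn*), the autosomal relative of dystrophin, was at 202 CPM in DBA and 108 CPM in D2-*mdx*, and α-sarcoglycan (*Sgca*) at 53.03 CPM in DBA and 29.3 CPM in D2-*mdx*. Dystroglycan (*Dag1*), the receptor for laminin, was at 1544 CPM in DBA and 1382 CPM in D2-*mdx*. The list had a median log2 ratio of -0.24.

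The genes that chose the cells differed among themselves. *Pax7*, the mark of the stem cell, was at 679.8 CPM in DBA and 427 CPM in D2-*mdx*, and *Myf5*, which is expressed in committed progenitors, at 415 CPM in DBA and 319.6 CPM in D2-*mdx*. *Myod1*, the regulator of activated cells, was at 146 CPM in DBA and 203 CPM in D2-*mdx*. *Myog*, which drives terminal differentiation, was at 17.3 CPM in DBA and 246 CPM in D2-*mdx*, a log2 ratio of 3.83 (3.71 to 3.96). These levels follow in part from the rule and are given as a description. Without *Myog* in the rule, 37 D2-*mdx* cells and no DBA cell would have been left out.

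All 30 listed genes of mitosis had a log2 ratio above 0, with a median of 2.62. Of these, 17 reached 10 CPM and all 17 were at least 2-fold higher, but 16 of them reached it in D2-*mdx* alone, so that this count was set by the limit and is not read against all genes. *Birc5*, the survivin subunit of the chromosomal passenger complex, was at 2.54 CPM in DBA and 37.3 CPM in D2-*mdx*. *Ube2c*, the ubiquitin-conjugating enzyme that ends mitosis with the anaphase-promoting complex, was at 2.75 CPM in DBA and 35.4 CPM in D2-*mdx*. Cyclin B1 (*Ccnb1*), the activator of the mitotic kinase, was at 1.18 CPM in DBA and 12.3 CPM in D2-*mdx*, and *Hmmr*, a spindle protein, at 1.76 CPM in DBA and 17.3 CPM in D2-*mdx*. *Mki67*, the usual marker of cycling cells, was at 10.5 CPM in DBA and 40.9 CPM in D2-*mdx*. Of the 17, only *Mki67* reached 10 CPM in DBA.

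Among 33 listed genes of DNA replication 31 had a log2 ratio above 0, with a median of 0.97. Of 25 tested, 11 were at least 2-fold higher and none lower, but 11 of the 25 reached 10 CPM in D2-*mdx* alone. Of the 14 above it in both libraries 1 was at least 2-fold higher. *Rrm2*, the subunit of ribonucleotide reductase made in S phase, was at 3.71 CPM in DBA and 32.5 CPM in D2-*mdx*. *2810417H13Rik*, which encodes a partner of the sliding clamp, was at 5.26 CPM in DBA and 41.6 CPM in D2-*mdx*, and cyclin E1 (*Ccne1*), which opens S phase, at 2.23 CPM in DBA and 11.9 CPM in D2-*mdx*. *Pcna*, the clamp itself, was at 36.4 CPM in DBA and 29.9 CPM in D2-*mdx*, and *Mcm4*, a subunit of the replicative helicase, was at 22.7 CPM in DBA and 27.9 CPM in D2-*mdx*.

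The promoters of the tested members of these groups are shown. Of these members 16 of 17 for mitosis and 11 of 25 for DNA replication reached 10 CPM in D2-*mdx* alone. The motif shares thus describe the genes so chosen and are not read against their difference. The sequences are those of RefSeq on GRCm38.p6, read 5′ to 3′ on the strand of the gene over the 250 bases before its start. The letters searched were CCAAT, the box bound by NF-Y, and TTTGAA, the core of the cell cycle homology region, on both strands. RefSeq windows were found for 15 of the 17 mitosis genes, 16 windows in all. CCAAT was present in 14 of these, or 87.5%, and in 33.8% of all 32851 windows. TTTGAA was present in 8 of 16, and in 15.99% of all windows. Among 26 windows of the DNA replication genes, CCAAT was in 61.5% and TTTGAA in 7.69%. A match of letters is not evidence of binding. Capitals below mark both motifs on either strand. In *Ube2c* (chr2:164769679-164769928, plus strand), which holds both, a CCAAT overlaps its own complement. The *Ccnb1* window (chr13:100786487-100786736, minus strand) holds CCAAT but not TTTGAA.
Ube2c: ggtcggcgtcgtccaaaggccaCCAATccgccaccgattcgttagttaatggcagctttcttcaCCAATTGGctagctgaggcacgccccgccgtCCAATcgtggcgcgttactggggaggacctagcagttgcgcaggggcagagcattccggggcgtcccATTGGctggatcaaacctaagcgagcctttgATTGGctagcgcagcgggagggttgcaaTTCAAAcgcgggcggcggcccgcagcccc
Ccnb1: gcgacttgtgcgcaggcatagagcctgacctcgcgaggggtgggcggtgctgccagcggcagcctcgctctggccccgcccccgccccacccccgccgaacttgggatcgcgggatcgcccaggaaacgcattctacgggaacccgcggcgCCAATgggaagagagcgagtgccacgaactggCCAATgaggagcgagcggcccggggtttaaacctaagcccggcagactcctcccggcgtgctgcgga

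The share of cells in cycle was counted after each cell was thinned to 3000 UMIs, so that depth was equal. Cells with at least 3 UMIs over the mitosis list were 17 of 2857 in DBA, 0.595% (exact binomial interval 0.347 to 0.951%). In D2-*mdx* they were 251 of 4403, 5.70% (5.03 to 6.43%). The difference was 5.11 percentage points (Newcombe interval 4.37 to 5.86). Without thinning the shares were 2.17% and 10.9%. As a reference, cells of the same libraries with at least 5 UMIs of pericyte markers and no UMI of the rule genes were counted in the same way. Among these the share was 0.239% in DBA and 1.19% in D2-*mdx*, at median depths of 10988.5 and 6814 UMIs before thinning. The D2-*mdx* myogenic share was thus above its reference beyond counting error. In DBA the reference was 1 cell of 418, with an interval of 0.00606 to 1.33%. So few cells could not show whether the DBA share was above it. With cells bearing at least 2 UMIs of any of 6 other cell types left out, which kept 18 DBA and 343 D2-*mdx* cells, the difference was -1.47 percentage points (-21.7 to 3.81). So few DBA cells could not give a direction. Without cells bearing pericyte, glial, endothelial or white blood markers the difference was 3.15 (2.43 to 3.92). This removal also lowered the median depth before thinning, from 6741 to 6122 UMIs in D2-*mdx* and from 10354 to 10250.5 in DBA. Marker content and depth could not be told apart in it.

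**Figure D2:**
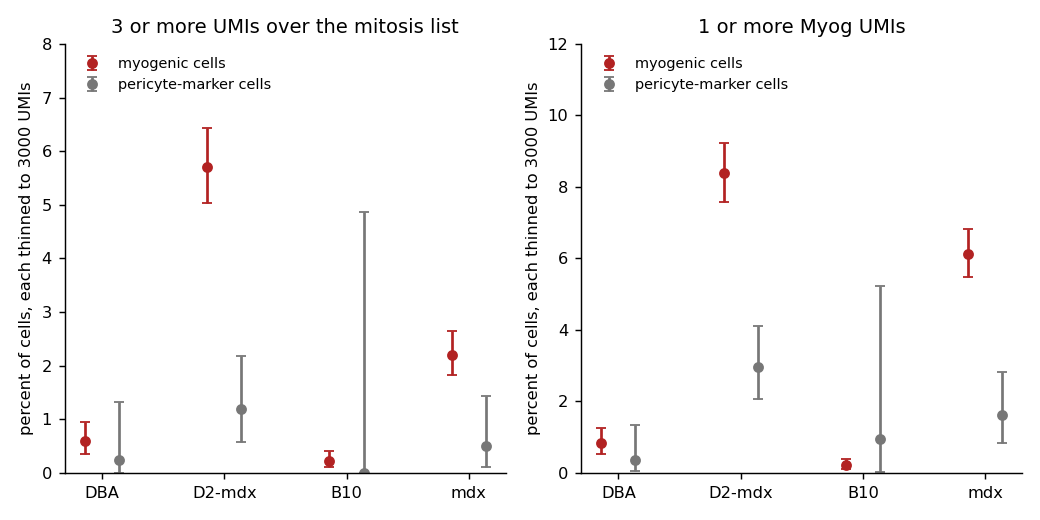
Percent of cells (y axis) with at least 3 UMIs over the mitosis list (left) and with a *Myog* UMI (right) in each library (x axis), after thinning to 3000 UMIs; points are shares and bars exact binomial 95% intervals for counting error. Red points are myogenic cells and grey points pericyte-marker cells of the same library, with at least 5 pericyte UMIs and no rule-gene UMI on the left and at least 10 pericyte UMIs on the right, and the D2-*mdx* myogenic cells, at 5.70% and 8.38%, have the highest share in both panels.

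Among 35 listed genes of differentiation and fusion 29 had a log2 ratio above 0, with a median of 3.02. Of 23 tested, 16 were at least 2-fold higher and none lower, but 14 reached 10 CPM in D2-*mdx* alone and so had to be higher. Of the 9 above it in both libraries 3 were at least 2-fold higher, with a median of 0.73. *Tnnt2*, the troponin T that immature muscle shares with the heart, was at 0.124 CPM in DBA and 33.9 CPM in D2-*mdx*, and *Actc1*, the actin of embryonic and cardiac muscle, at 0.742 CPM in DBA and 49.7 CPM in D2-*mdx*. *Ttn*, the giant spring of the sarcomere, was at 4.64 CPM in DBA and 185 CPM in D2-*mdx*. *Cacng1*, the γ subunit of the muscle calcium channel, was at 1.83 CPM in DBA and 103 CPM in D2-*mdx*. Both proteins that fuse myoblasts stood out. *Tmem8c*, which encodes myomaker, was at 1.42 CPM in DBA and 27.3 CPM in D2-*mdx*, and *Gm7325*, which encodes myomixer, had no UMI in DBA and 1253 UMIs in D2-*mdx*, or 33.02 CPM. Set against a floor of 3 counts in the DBA library this was 355.8-fold higher, and the lower limit of the counting interval was 8.17 on the log2 scale. The list's median is the same with *Gm7325* at either value.

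Other members did not reach 2-fold. *Tnnt1*, the slow troponin T, was at 63.4 CPM in DBA and 54.4 CPM in D2-*mdx*, and *Chrnb1*, a subunit of the acetylcholine receptor, at 95.6 CPM in DBA and 84.5 CPM in D2-*mdx*. *Mef2d*, a partner of the myogenic factors, was at 51.5 CPM in DBA and 27.8 CPM in D2-*mdx*. Of the 9 fibre transcripts named above as possible free RNA, 5 are members of this list. *Acta1*, the skeletal actin, was at 9.28 CPM in DBA and 112 CPM in D2-*mdx*, *Mylpf*, the fast regulatory light chain, at 5.23 CPM in DBA and 92.7 CPM in D2-*mdx*, and *Ckm*, muscle creatine kinase, at 2.85 CPM in DBA and 18.98 CPM in D2-*mdx*. The part of free fibre RNA in these values was not tested. *Cacng1* and *Ttn* were spread over many D2-*mdx* cells, with 18.3% and 15.5% of thinned cells holding a UMI. In pericyte-marker cells of D2-*mdx* these shares were 0.595% and 2.497%, and in DBA myogenic cells 0.385% and 1.05%. *Tnnt2* and *Actc1* were instead concentrated in few cells, with 82.04% and 93.5% of their D2-*mdx* UMIs in the 50 highest cells.

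Cells with a *Myog* UMI after thinning were 24 of 2857 in DBA, 0.840% (0.539 to 1.25%), and 369 of 4403 in D2-*mdx*, 8.38% (7.58 to 9.24%). The difference was 7.54 percentage points (6.66 to 8.44). Unthinned shares were 1.54% and 13.4%. In cells with at least 10 UMIs of pericyte markers, whatever their rule genes, the thinned shares were 0.375% in DBA and 2.97% in D2-*mdx*. The DBA share lay within the interval of its reference, 0.0454 to 1.35%. That reference was 2 cells of 534, too few to show whether the DBA share was above it. *Myog* is part of the rule, and with at least 2 UMIs of the other 3 rule genes the difference was 7.20 percentage points.

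The promoters of differentiation genes are shown for the E-box CAGCTG, which the myogenic factors are known to bind, and for TATAAA, both searched on either strand. RefSeq windows were found for 17 of the 23 tested genes, 20 windows in all. Of the 23, 14 reached 10 CPM in D2-*mdx* alone, so the shares describe the genes so chosen. CAGCTG was in 8 of them, or 40%, against 13.0% of all windows, and TATAAA in 6, or 30%, against 12.4%. *Tnnt2* has 2 windows, which were ranked by how many of the searched motifs they held, and the top one is shown. This *Tnnt2* window (chr1:135836084-135836333, plus strand) and the *Mylpf* window (chr7:127211358-127211607, plus strand) hold CAGCTG, in capitals, and no TATAAA.
Tnnt2: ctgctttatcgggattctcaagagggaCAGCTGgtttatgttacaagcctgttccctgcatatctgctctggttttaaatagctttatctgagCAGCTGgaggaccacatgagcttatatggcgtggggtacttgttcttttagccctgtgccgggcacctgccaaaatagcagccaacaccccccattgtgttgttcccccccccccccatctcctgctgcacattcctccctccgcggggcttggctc
Mylpf: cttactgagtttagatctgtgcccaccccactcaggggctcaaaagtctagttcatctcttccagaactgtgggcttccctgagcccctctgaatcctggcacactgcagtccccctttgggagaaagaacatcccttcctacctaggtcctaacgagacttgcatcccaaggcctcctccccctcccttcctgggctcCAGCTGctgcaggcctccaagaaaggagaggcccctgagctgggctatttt

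Among 26 tested genes of the resting satellite cell 11 were at least 2-fold lower in D2-*mdx*, against 5.03% of all genes, and 2 were higher, with a median log2 ratio of -0.86. Of the 24 with at least 10 CPM in both libraries 10 were lower and 1 higher. *Pde10a*, a phosphodiesterase, was at 420.0 CPM in DBA and 75.8 CPM in D2-*mdx*, a log2 ratio of -2.47 (-2.53 to -2.41). *Tek*, the angiopoietin receptor, was at 47.5 CPM in DBA and 13.02 CPM in D2-*mdx*. *Nppc*, which encodes C-type natriuretic peptide, was at 2013 CPM in DBA and 598 CPM in D2-*mdx*, and *Gas1*, a membrane protein of arrested cells, at 2297 CPM in DBA and 775 CPM in D2-*mdx*. *Cd34*, a surface sialomucin of quiescent satellite cells, was at 228 CPM in DBA and 105 CPM in D2-*mdx*, and *Cxcr4*, the chemokine receptor used to sort them, at 67.4 CPM in DBA and 25.7 CPM in D2-*mdx*.

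The calcitonin receptor (*Calcr*), which helps to hold satellite cells at rest, was at 71.1 CPM in DBA and 38.3 CPM in D2-*mdx*, short of 2-fold. *Spry1*, the feedback inhibitor of FGF signalling needed for return to quiescence, was at 469 CPM in DBA and 343 CPM in D2-*mdx*. Both higher members were *Cdh2*, N-cadherin of the niche contact, at 6.84 CPM in DBA and 30.3 CPM in D2-*mdx*, and *Six4*, a homeobox factor, at 10.3 CPM in DBA and 21.5 CPM in D2-*mdx*. *Cdh15*, M-cadherin, and *Des*, desmin, were at 191 to 282 CPM and 305 to 588 CPM, again from DBA to D2-*mdx*. Members of the list thus differed in direction.

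Members of the Notch pathway, which keeps satellite cells undifferentiated, lay mostly below 0 by less than 2-fold. Of 13 tested, none was at least 2-fold lower and 1 was higher, while 11 had a log2 ratio below 0 and the median was -0.67. The receptors *Notch1* and *Notch3* were at 164 CPM in DBA and 97.9 CPM in D2-*mdx*, and 269 CPM in DBA and 171 CPM in D2-*mdx*, respectively. The targets *Hes1*, *Heyl* and *Hey1* were at 289 to 182 CPM, 299.9 to 177 CPM and 89.6 to 49.99 CPM, from DBA to D2-*mdx*. *Dtx4*, a ubiquitin ligase of the pathway, was at 297 CPM in DBA and 150.4 CPM in D2-*mdx*, and *Rbpj*, its DNA-binding partner, at 100.5 CPM in DBA and 103 CPM in D2-*mdx*. The exception was *Maml3*, a coactivator, at 14.3 CPM in DBA and 33.05 CPM in D2-*mdx*.

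Among 14 tested genes of cyclins D, their kinases and inhibitors, 6 were at least 2-fold higher, 1 was lower and 5 had a ratio below 0. Of the 12 with at least 10 CPM in both libraries 4 were higher. *Cdkn2a* (mm10 chr4:89274471-89294653), the locus of the INK4a and ARF proteins that act on the retinoblastoma and p53 pathways, was at 2.23 CPM in DBA and 100.1 CPM in D2-*mdx*. On the log2 scale the ratio was 5.49 (5.15 to 5.85). A *Cdkn2a* UMI was found in 0.735% of thinned DBA cells and 20.4% of thinned D2-*mdx* cells, and in 0.476% of pericyte-marker cells of D2-*mdx*. Its neighbour *Cdkn2b*, an inhibitor of the same kinases, was at 1.52 CPM in DBA and 12.9 CPM in D2-*mdx*. *Cdkn1a*, the p53 target, was at 46.5 CPM in DBA and 201 CPM in D2-*mdx*, and *Cdkn1c*, an imprinted inhibitor of cyclin-dependent kinases, at 49.9 CPM in DBA and 522 CPM in D2-*mdx*.

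*Cdk6*, the kinase partner of cyclins D, was at 13.1 CPM in DBA and 74.9 CPM in D2-*mdx*, and cyclin D2 (*Ccnd2*) at 12.03 CPM in DBA and 28.5 CPM in D2-*mdx*. Cyclins D1 and D3 did not differ by as much, with *Ccnd1* at 383 CPM in DBA and 382 CPM in D2-*mdx* and *Ccnd3* at 229 CPM in DBA and 224 CPM in D2-*mdx*. *Rbl2*, a retinoblastoma relative of resting cells, was at 34.4 CPM in DBA and 16.5 CPM in D2-*mdx*. Of 24 tested genes of apoptosis and of the p53 response, 6 were higher and 1 lower, with a median of 0.61, and of the 20 with at least 10 CPM in both libraries 3 were higher. *Gadd45g*, a stress sensor, was at 24.3 CPM in DBA and 214 CPM in D2-*mdx*, *Phlda3*, a p53 target that restrains AKT, at 34.6 CPM in DBA and 119.8 CPM in D2-*mdx*, and *Bik*, a pro-apoptotic BCL2 relative, at 0.742 CPM in DBA and 12.1 CPM in D2-*mdx*. In pericyte-marker cells *Gadd45g* was at 313 CPM in DBA and 830 CPM in D2-*mdx*. *Bbc3*, which encodes PUMA, was at 3.84 CPM in DBA and 11.4 CPM in D2-*mdx*. *Trp53* was at 110.0 CPM in DBA and 87.3 CPM in D2-*mdx*, and *Bcl2*, which blocks apoptosis, at 77.4 CPM in DBA and 73.1 CPM in D2-*mdx*.

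In the list of annexins, S100 proteins and actin-binding proteins, which also holds vimentin and galectin 3, every member lay on the higher side. The list was drawn up with earlier results of these data known, so this is a description. Of 32 tested, 15 were at least 2-fold higher and none lower, 31 reached 10 CPM in both libraries, and every one of the 32 had a log2 ratio above 0, with a median of 0.93 and a lowest value of 0.05. *S100a6*, a calcium-binding protein of proliferating cells, was at 226 CPM in DBA and 1875 CPM in D2-*mdx*, a log2 ratio of 3.05 (3.01 to 3.08). *S100a4* was at 23.6 CPM in DBA and 432 CPM in D2-*mdx*, and vimentin (*Vim*), the intermediate filament of mesenchymal cells and myoblasts, at 662 CPM in DBA and 3953 CPM in D2-*mdx*. Galectin 3 (*Lgals3*) was at 43.1 CPM in DBA and 353 CPM in D2-*mdx*, *Anxa1* at 72.5 CPM in DBA and 343 CPM in D2-*mdx*, and *Anxa2*, which acts in membrane repair, at 309 CPM in DBA and 809 CPM in D2-*mdx*. *Anxa6* was at 231 CPM in DBA and 239 CPM in D2-*mdx*. A *Vim* UMI was found in 73.7% of thinned DBA cells and 97.7% of thinned D2-*mdx* cells, and for *S100a6* these shares were 26.1% and 88.3%.

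*S100a6* and *Vim* were also high in pericyte-marker cells of D2-*mdx*, at 3679 and 3452 CPM, above or near their level in the myogenic cells. *Lgals3* reached 2609 CPM in white-blood-marker cells. *S100a4* was at 897 CPM in white-blood-marker cells, 873 CPM in glial-marker cells and 63.1 CPM in pericyte-marker cells of D2-*mdx*. Of its UMIs in the D2-*mdx* myogenic cells 21.2% lay in 50 cells. Without cells that had at least 2 UMIs of pericyte, glial, endothelial or white blood markers, a choice made after the data were seen, the log2 ratios were 3.24 for *S100a6*, 2.47 for *Vim* and 2.54 for *Lgals3*.

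**Figure D3:**
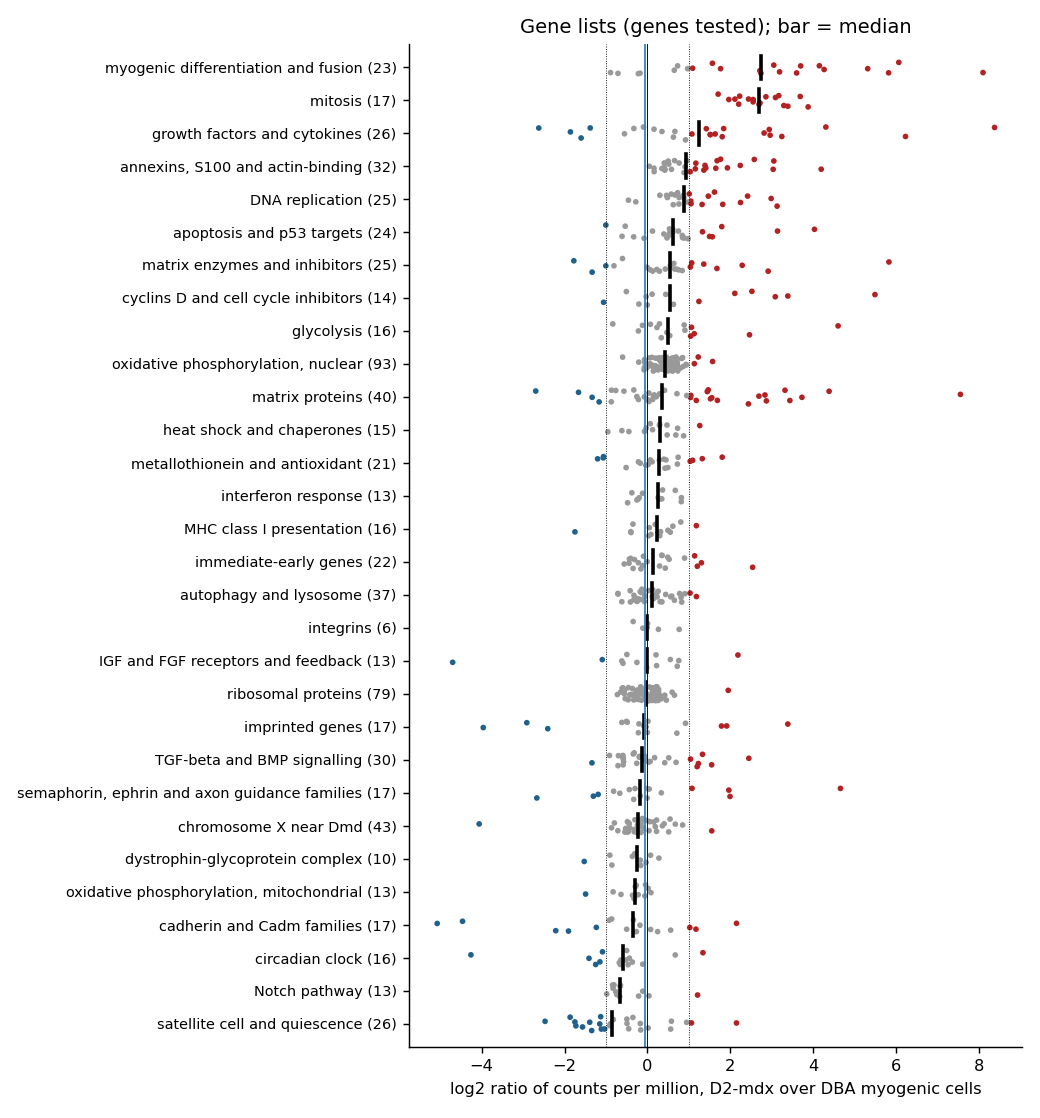
Each point is a tested gene, placed by its log2 ratio of D2-*mdx* over DBA (x axis) within the gene list named on the left with the number of genes tested; red and blue points lie beyond 2-fold and black bars are list medians. The blue line marks the median of all tested genes, -0.05. *Gm7325*, with no DBA count, is not drawn. The medians run from -0.86 for satellite cell and quiescence genes to 2.74 for differentiation and fusion, of whose 23 tested genes 14 reached 10 CPM in D2-*mdx* alone.

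Matrix genes differed in both directions. Of 40 tested matrix proteins, 17 were at least 2-fold higher and 4 lower, with a median log2 ratio of 0.35. Of the 29 with at least 10 CPM in both libraries 8 were higher and 3 lower. Osteopontin (*Spp1*, mm10 chr5:104435118-104441050), a secreted phosphoprotein of injured muscle, had the largest log2 ratio of all genes at 50 CPM or more, 7.55 (7.13 to 8.01). It was at 1.39 CPM in DBA and 261 CPM in D2-*mdx*. White-blood-marker cells of D2-*mdx* held 5923 CPM of it, glial-marker cells 668 CPM and pericyte-marker cells 47.4 CPM, and 72.6% of its UMIs in the myogenic cells lay in 50 cells. With marker-bearing cells left out it was at 0.408 CPM in DBA and 84.8 CPM in D2-*mdx*, a log2 ratio of 7.70. An *Spp1* UMI was found in 12.9% of thinned myogenic cells and 10.5% of thinned pericyte-marker cells of D2-*mdx*. The part of other cells in its myogenic value was not tested.

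Among collagens, *Col1a1* and *Col1a2*, which form type I fibrils, were at 19.8 to 128 CPM and 34.5 to 344 CPM, from DBA to D2-*mdx*. In D2-*mdx* they stood at 710 and 926 CPM in pericyte-marker cells and at 692 and 1567 CPM in glial-marker cells. The part of such cells in the myogenic values was not tested. *Col8a1*, a short-chain collagen, was at 4.21 CPM in DBA and 87.8 CPM in D2-*mdx*, and *Col3a1*, a fibrillar collagen, at 1045 CPM in DBA and 1071 CPM in D2-*mdx*. Pericyte-marker cells of D2-*mdx* held 161 CPM of *Col8a1*. The chains of the basal lamina differed little, with *Col4a1* at 430.3 CPM in DBA and 360.3 CPM in D2-*mdx* and *Lama2*, the laminin chain of muscle, at 110.3 CPM in DBA and 111 CPM in D2-*mdx*. Fibronectin (*Fn1*) was at 3.87 CPM in DBA and 41.9 CPM in D2-*mdx*. It stood at 1323 CPM in white-blood-marker cells of D2-*mdx*, 58.9% of its myogenic UMIs lay in 50 cells, and without marker-bearing cells its log2 ratio was 2.70 against 3.44. Tenascin C (*Tnc*) was at 1.48 CPM in DBA and 19.7 CPM in D2-*mdx*, and periostin (*Postn*) at 18.5 CPM in DBA and 100.3 CPM in D2-*mdx*. Pericyte-marker cells of D2-*mdx* held 66.7 CPM of *Tnc*. The 4 lower members were *Tnxb* (tenascin X), *Thbs2*, *Col15a1* and *Fbln5*. *Tnxb* was at 155 CPM in DBA and 23.9 CPM in D2-*mdx*, and *Thbs2*, a thrombospondin, at 72.9 CPM in DBA and 23.03 CPM in D2-*mdx*.

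Of 25 enzymes of the matrix and their inhibitors, 7 were at least 2-fold higher and 3 lower. Of the 20 with at least 10 CPM in both libraries 3 were higher and 2 lower. *Timp1*, an inhibitor of metalloproteinases, was at 1.61 CPM in DBA and 91.3 CPM in D2-*mdx*, and *Timp3*, its matrix-bound relative, at 199 CPM in DBA and 99.3 CPM in D2-*mdx*. *Mmp2*, a gelatinase, was at 339 CPM in DBA and 99.04 CPM in D2-*mdx*. *Timp1* reached 105 CPM in pericyte-marker cells of D2-*mdx*, about its level in the myogenic cells, and had a log2 ratio of 5.63 without marker-bearing cells. *Adamts2*, which cleaves procollagen, was at 2.32 CPM in DBA and 17.5 CPM in D2-*mdx*, and *Plaur*, the urokinase receptor, at 3.19 CPM in DBA and 15.5 CPM in D2-*mdx*. Pericyte-marker cells of D2-*mdx* held 98.7 CPM of *Adamts2*.

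Of 30 genes of TGF-β and BMP signalling, 6 were at least 2-fold higher and 1 lower, with a median of -0.14. Over all genes the shares were 6.23% and 5.03%. Of the 26 with at least 10 CPM in both libraries 4 were higher and 1 was lower. *Tgfb1* was at 5.85 CPM in DBA and 31.9 CPM in D2-*mdx*, and *Tgfb2* at 54.4 CPM in DBA and 128 CPM in D2-*mdx*. *Id1*, *Id2* and *Id3*, inhibitors of myogenic factors that BMP signals induce, were at 152 to 312 CPM, 65.5 to 150.4 CPM and 485 to 1419 CPM, from DBA to D2-*mdx*. Betaglycan (*Tgfbr3*), the coreceptor, was at 339.8 CPM in DBA and 134 CPM in D2-*mdx*. The receptors *Tgfbr1* and *Tgfbr2* were at 38.5 to 25.8 CPM and 45.8 to 40.03 CPM, and the transducers *Smad2* and *Smad3* at 44.2 to 41.96 CPM and 17.8 to 14.9 CPM.

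Secreted growth factors and cytokines divided. Of 26 tested, 14 were at least 2-fold higher and 4 lower, and the median was 1.25. Of these, 12 reached 10 CPM in D2-*mdx* alone, and among the 13 above it in both libraries 3 were higher and 3 lower, with a median of 0.35. *Igf1*, the growth factor of muscle, was at 445 CPM in DBA and 72.3 CPM in D2-*mdx*, *Vegfa*, the angiogenic factor, at 50.3 CPM in DBA and 13.9 CPM in D2-*mdx*, and *Igfbp4*, which binds IGF, at 306 CPM in DBA and 101 CPM in D2-*mdx*. *Fgf2* was at 20.05 CPM in DBA and 7.695 CPM in D2-*mdx*. Higher members included *Pdgfa*, a mitogen of mesenchymal cells, at 84.7 CPM in DBA and 303 CPM in D2-*mdx*, *Igfbp3* at 4.55 CPM in DBA and 43.04 CPM in D2-*mdx*, and epiregulin (*Ereg*), an EGF receptor ligand, with 1 UMI in DBA and 390 UMIs in D2-*mdx*. That ratio, 8.38 on the log2 scale, has an interval of 5.89 to 13.68.

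The chemokines *Cxcl2* and *Ccl7* were at 0.371 to 27.8 CPM and 0.619 to 12.2 CPM, from DBA to D2-*mdx*. White-blood-marker cells of D2-*mdx* held 1791 and 316 CPM of them, and 89.4% and 86.2% of their myogenic UMIs lay in 50 cells. Without marker-bearing cells their log2 ratios were 4.49 and 2.51, against 6.23 and 4.30 in all cells. Many members of the growth factor list were at low levels, and its median was -0.33 with a minimum of 50 CPM, opposite in sign. Among 13 receptors and feedback genes of IGF and FGF, 1 was higher and 2 lower. Of the 11 with at least 10 CPM in both libraries none was higher and 1 was lower. *Fgfr2* was at 14.4 CPM in DBA and 0.553 CPM in D2-*mdx*, *Spred2*, an inhibitor of the pathway, at 62.5 CPM in DBA and 29.4 CPM in D2-*mdx*, and *Dusp6*, a phosphatase of ERK, at 8.72 CPM in DBA and 39.6 CPM in D2-*mdx*. *Igf1r* was at 124 CPM in DBA and 87.7 CPM in D2-*mdx*.

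Of 17 genes of the semaphorin, ephrin and related families, 4 were higher and 3 lower, and without marker-bearing cells 2 of 16 were higher and 3 lower. Of the 12 with at least 10 CPM in both libraries 1 was higher and 2 were lower. *Sema3a*, a repellent of motor axons, was at 0.928 CPM in DBA and 23.4 CPM in D2-*mdx*, and its receptors *Nrp1* and *Nrp2* at 16.95 to 67.4 CPM and 3.37 to 13.2 CPM, from DBA to D2-*mdx*. In pericyte-marker cells of D2-*mdx* these receptors stood at 427 and 82.7 CPM and in endothelial-marker cells at 1138 and 244 CPM. Without marker-bearing cells *Nrp1* was at 5.41 and 48.2 CPM and *Nrp2* at 1.22 and 5.74 CPM. *Epha4*, an ephrin receptor, was at 52.3 CPM in DBA and 8.22 CPM in D2-*mdx*. Of 17 cadherins and relatives, 3 were higher and 5 lower, with a median of -0.34. Of these 17, 4 reached 10 CPM in D2-*mdx* alone and 5 in DBA alone, and so had to differ in that direction. Of the 8 above it in both libraries none was higher and 1 was lower. Without marker-bearing cells 1 of 15 was higher and 6 lower, with a median of -0.77, and *Cadm1*, an adhesion molecule, had a log2 ratio of -0.07 against 1.17. Lower members included *Cdh4* at 17.8 CPM in DBA and 0.527 CPM in D2-*mdx*, *Pcdh17* at 59.2 CPM in DBA and 2.69 CPM in D2-*mdx*, and *Celsr2* at 14.8 CPM in DBA and 3.19 CPM in D2-*mdx*. Each of them reached 10 CPM in DBA alone. None of 6 tested integrins was beyond 2-fold. *Itgb1*, the common β chain, was at 439.8 CPM in DBA and 437 CPM in D2-*mdx*.

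Of 22 immediate-early genes, which tissue dissociation is known to induce, 4 were higher, against 6.23% of all genes, and none lower, with a median of 0.14. *Fos* was at 6973 CPM in DBA and 8860 CPM in D2-*mdx*, and *Jun* at 7747 CPM in DBA and 6652 CPM in D2-*mdx*. *Atf3* was at 190.2 CPM in DBA and 438 CPM in D2-*mdx*, and *Ier5* at 13.4 CPM in DBA and 77.8 CPM in D2-*mdx*. In pericyte-marker cells *Atf3* was at 272 CPM in DBA and 597 CPM in D2-*mdx*, and *Ier5* at 185 and 159 CPM. Of 15 heat shock genes 1 was higher, *Hspb1* at 289.8 CPM in DBA and 695 CPM in D2-*mdx*, while *Hspa1b* was at 2104 CPM in DBA and 1084 CPM in D2-*mdx*. None of 13 interferon-response genes was beyond 2-fold, with *Isg15* at 9.56 CPM in DBA and 16.8 CPM in D2-*mdx*. In the MHC class I list, β2-microglobulin (*B2m*) was at 119 CPM in DBA and 269 CPM in D2-*mdx* and *H2-Q4* at 129 CPM in DBA and 38.4 CPM in D2-*mdx*, the only members of 16 beyond 2-fold. Of 79 ribosomal protein genes 1 was beyond 2-fold, *Rpl6l* at 22.6 CPM in DBA and 87.4 CPM in D2-*mdx*, and the median was -0.05. *Rpl6l* is a near copy of *Rpl6*, so its counts are uncertain.

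Nuclear genes of oxidative phosphorylation lay above all genes by a small amount. Of 93 tested 3 were at least 2-fold higher and none lower, with a median of 0.42, and 84 had a log2 ratio above 0. *Cox5a* was at 182 CPM in DBA and 541 CPM in D2-*mdx*, and cytochrome c (*Cycs*) at 106 CPM in DBA and 233 CPM in D2-*mdx*. The 13 genes on the mitochondrial genome had a median of -0.29, with *mt-Nd6* at 84.98 CPM in DBA and 30.2 CPM in D2-*mdx*, the only one beyond 2-fold. Of 16 glycolytic genes 5 were higher, and of the 14 with at least 10 CPM in both libraries 3 were. In the cells with a *Pax7* UMI and no *Myog* or mitosis UMI, and also without marker-bearing cells, 2 were higher and 1 lower. The largest ratios were those of muscle enolase (*Eno3*) at 3.898 CPM in DBA and 94.5 CPM in D2-*mdx* and hexokinase 2 (*Hk2*) at 7.33 CPM in DBA and 40.4 CPM in D2-*mdx*. Lactate dehydrogenase A (*Ldha*) was at 152 CPM in DBA and 333 CPM in D2-*mdx*, with a log2 ratio of 1.13, and of 0.94 without marker-bearing cells. Among 21 metallothionein and antioxidant genes 4 were higher and 3 lower, with *Gpx1* at 50.9 CPM in DBA and 178 CPM in D2-*mdx* and the secreted *Gpx3* at 1374 CPM in DBA and 597 CPM in D2-*mdx*.

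Of 37 autophagy and lysosome genes 2 were higher and none lower, both lysosomal hydrolases, *Ctsd* at 83.8 CPM in DBA and 190.0 CPM in D2-*mdx* and *Hexa* at 23.1 CPM in DBA and 47.2 CPM in D2-*mdx*. This is near the 6.23% of all genes. White-blood-marker cells of D2-*mdx* held 1663 and 395 CPM of them, and without marker-bearing cells none of 37 was beyond 2-fold, with log2 ratios of 0.97 and 0.77. *Becn1*, a core autophagy factor, was at 43.3 CPM in DBA and 47.8 CPM in D2-*mdx*, and *Map1lc3b* at 163 CPM in DBA and 221 CPM in D2-*mdx*. Among 16 clock genes 1 was higher and 5 lower, with a median of -0.58. Of the 12 with at least 10 CPM in both libraries 1 was higher and 3 were lower, with a median of -0.51. *Hlf*, a PAR bZIP factor, was at 26.8 CPM in DBA and 1.397 CPM in D2-*mdx*, *Per1* at 40.3 CPM in DBA and 18.2 CPM in D2-*mdx*, and *Rora* at 288 CPM in DBA and 121 CPM in D2-*mdx*, while *Nfil3*, the repressor of the same sites, was at 21.9 CPM in DBA and 55.5 CPM in D2-*mdx*. *Arntl*, the core activator, was at 24.7 CPM in DBA and 15.4 CPM in D2-*mdx*. The hour at which the mice were killed is not given in the sources used here.

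Imprinted genes held differences in both directions, 3 higher and 3 lower of 17. Of the 16 with at least 10 CPM in both libraries 3 were higher and 2 lower. *Meg3* (mm10 chr12:109541001-109571726), a long noncoding RNA of the maternal allele, was at 2148 CPM in DBA and 285 CPM in D2-*mdx*, a log2 ratio of -2.91 (-2.94 to -2.88). *Mirg*, from the same cluster, was at 16.4 CPM in DBA and 1.05 CPM in D2-*mdx*. *Meg3* was found in 90.2% of thinned DBA cells and 23.7% of thinned D2-*mdx* cells, whereas pericyte-marker cells carried it in 80.6% and 70.04%. *H19*, a maternally expressed RNA of embryonic muscle, was at 11.9 CPM in DBA and 44.7 CPM in D2-*mdx*, and its neighbour *Igf2* at 49.3 CPM in DBA and 93.2 CPM in D2-*mdx*. *Peg3*, a paternally expressed zinc finger gene of muscle stem cells, was at 823 CPM in DBA and 774 CPM in D2-*mdx*, and *Grb10* at 230.2 CPM in DBA and 164 CPM in D2-*mdx*.

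Apart from the lists, the 15 highest and 15 lowest genes at 50 CPM or more were named, leaving out gene models without a name. The highest that have not been described yet were *Dpysl3*, a cytoskeletal protein of neurites, at 4.42 CPM in DBA and 118 CPM in D2-*mdx*, *Ahnak2*, a large scaffold protein, at 2.78 CPM in DBA and 54.1 CPM in D2-*mdx*, *Fabp4* at 8.72 CPM in DBA and 129 CPM in D2-*mdx*, *Fabp5* at 10.5 CPM in DBA and 128 CPM in D2-*mdx*, and *Myof*, the membrane-repair protein myoferlin, at 3.84 CPM in DBA and 51.5 CPM in D2-*mdx*. *Fabp4*, the fatty acid carrier of fat cells and capillaries, reached 28950 CPM in endothelial-marker cells of D2-*mdx*. Of its UMIs in the myogenic cells 70.5% lay in 50 cells, and its log2 ratio was 3.89 in all and 3.498 without marker-bearing cells. *Fabp5* stood at 2395 CPM in endothelial-marker cells and 1336 CPM in white-blood-marker cells of D2-*mdx*. In pericyte-marker cells it was at 37.6 CPM in DBA and 121 CPM in D2-*mdx*. The part of such cells in its myogenic value was not tested.

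The lowest was *Slc22a3* (mm10 chr17:12418960-12507704), an organic cation transporter, at 99.3 CPM in DBA and 3.37 CPM in D2-*mdx*, a log2 ratio of -4.88 (-5.15 to -4.62). It was found in 23.3% of thinned DBA cells and 0.977% of thinned D2-*mdx* cells. *Ryr3*, the ryanodine receptor of immature muscle, was at 110.3 CPM in DBA and 6.77 CPM in D2-*mdx*, *Cacna1d*, a voltage-gated calcium channel, at 98.2 CPM in DBA and 11.8 CPM in D2-*mdx*, and *Ttyh1*, a chloride channel relative, at 273 CPM in DBA and 26.9 CPM in D2-*mdx*. *Clmp*, an adhesion molecule, was at 131 CPM in DBA and 6.299 CPM in D2-*mdx*, *Mgarp*, a mitochondrial transport protein, at 134 CPM in DBA and 13.5 CPM in D2-*mdx*, and *Thy1*, a surface glycoprotein, at 119 CPM in DBA and 17.97 CPM in D2-*mdx*. *Ppp1r14a*, an inhibitor of myosin phosphatase, was at 211 CPM in DBA and 32.5 CPM in D2-*mdx*, *Tmem100* at 55.4 CPM in DBA and 8.14 CPM in D2-*mdx*, *Arhgap20* at 52.99 CPM in DBA and 8.38 CPM in D2-*mdx*, and *AY036118* at 899 CPM in DBA and 135 CPM in D2-*mdx*. In pericyte-marker cells *AY036118* was at 3156 CPM in DBA and 362 CPM in D2-*mdx*, and in glial-marker cells at 1658 and 244 CPM. Its difference was thus not particular to the myogenic cells.

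The *mdx* strain on the B10 background, in libraries of its own from mice of 11 (*mdx*) and 15 (B10) weeks, gave a point of reference. Of 8580 genes tested there, 481 were at least 2-fold higher in *mdx* than B10 (5.61%) and 403 lower (4.7%), 10.3% in all. Of the 538 genes higher in D2-*mdx*, 320 were among the 481, which is 59.5% of the first list and 66.5% of the second. Of the 434 lower genes 233 were among the 403, 53.7% and 57.8%. Opposite in sign were 14 and 12 genes. All of the 15 highest and all of the 15 lowest genes lay beyond 2-fold in the same direction in *mdx*.

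The size of the ratio differed between backgrounds for some of these 30 genes. Intervals for counting error did not overlap for 10 of the 15 highest, with the ratio larger in D2-*mdx* for 6 and in *mdx* for 4. *S100a4* had log2 ratios of 4.19 over DBA and 1.99 over B10, and *Eno3* of 4.60 and 2.72. *Myog* had 3.83 and 5.09. Among the lowest the ratio was larger in D2-*mdx* for 8 and in *mdx* for 3. All 30 genes were picked by their ratios over DBA, which favours larger ratios in D2-*mdx*. The numbers of genes on each side are thus not read as a result. *Pcdh17* had -4.46 over DBA and -1.02 over B10, with 21.9 CPM in B10 and 10.8 CPM in *mdx*. These differences between backgrounds were not tested, as each rests on 4 single libraries. The cycling share was 0.219% in B10 and 2.21% in *mdx*, and the *Myog* share 0.219% and 6.13%, by the same thinning.

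**Figure D4:**
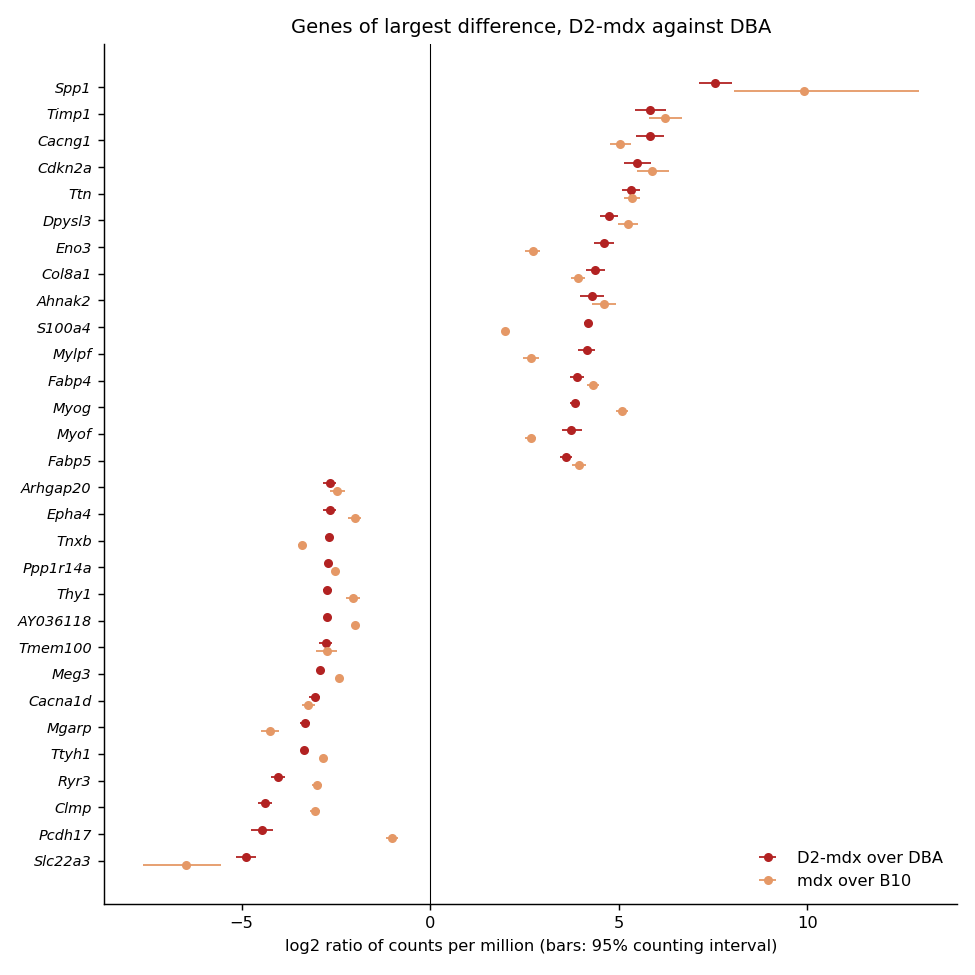
Log2 ratios (x axis) of the 15 highest and 15 lowest genes at 50 CPM or more (y axis), in dark red for D2-*mdx* over DBA and in orange for *mdx* over B10, with bars for the 95% counting interval. All 30 genes lie on the same side of 0 in both, and *Pcdh17*, at -4.46 and -1.02, has ratios far apart.

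Cells with a *Pax7* UMI and, after thinning, no UMI of *Myog* or of the mitosis list were compared on their own, 2609 in DBA and 2912 in D2-*mdx*. Among 8547 genes tested in them 443 were at least 2-fold higher (5.18%) and 346 lower (4.05%), 9.23% in either direction. Of the genes called in all cells, 441 of 538 and 328 of 434 were beyond 2-fold in the same direction here too. These cells are a part of all cells, so the overlap is not independent. *Cdkn2a* was at 2.05 CPM in DBA and 94.5 CPM in D2-*mdx* in these cells, a log2 ratio of 5.52, and *Cacng1* had 5.82. *Ttn* had 4.19, against 5.31 in all cells. No mitosis gene reached 10 CPM in these cells, which the choice of cells fixes. The 15 tested genes of DNA replication had a median of 0.18 here, and 1 of them was higher. In all cells 25 were tested, with a median of 0.88, so these medians rest on different sets of genes. Over the 14 with at least 10 CPM in both libraries the median in all cells was 0.70. The satellite cell and quiescence list had a median of -0.60 against -0.86, with 7 of 26 lower.

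**Figure D5:**
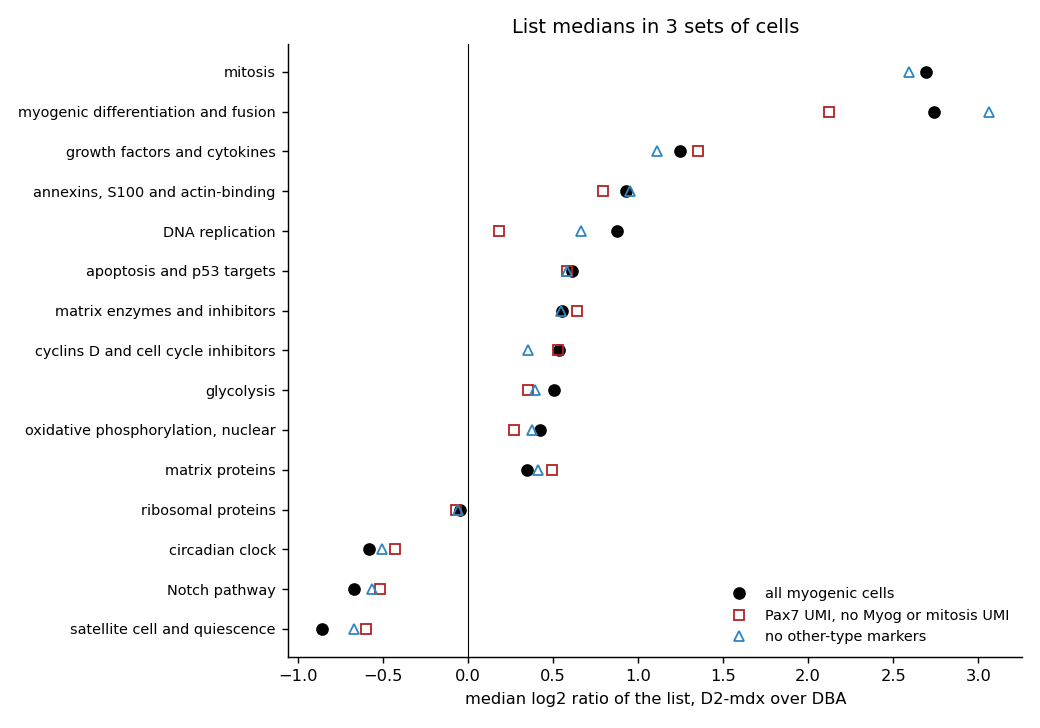
Median log2 ratio of D2-*mdx* over DBA (x axis) of 15 gene lists (y axis) in all myogenic cells (black circles), in cells with a *Pax7* UMI and no *Myog* or mitosis UMI (red squares) and without cells bearing markers of other types (blue triangles). The DNA replication list has medians of 0.88, 0.18 and 0.67, over 25, 15 and 22 tested genes. The mitosis list has no square because none of its genes was tested there, and none of the 15 lists drawn changes side of 0. Of the lists not drawn, those of integrins, of IGF and FGF receptors and of imprinted genes, with medians near 0, do.

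Leaving out cells with at least 2 UMIs of pericyte, glial, endothelial or white blood markers kept 2432 DBA and 3057 D2-*mdx* cells. All 15 highest and all 15 lowest genes were beyond 2-fold in the same direction in them, and 405 genes were higher and 408 lower of 8441 tested. The highest and lowest genes were picked by their ratios in all myogenic cells, of which these are a part. Their staying beyond 2-fold was thus nearly fixed by the choice and is not read as support. The tested genes of mitosis, 16 in number, had a median of 2.59, against 2.69 over the 17 tested in all cells. Those of differentiation, 22 in number, had a median of 3.06, against 2.74 over the 23 tested in all cells. These medians rest on different sets of genes.

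The *mdx* allele of D2-*mdx* was bred in from the B10 strain, so genes near it on the X chromosome can differ in origin between the libraries. Of 154 genes within 10 Mb of *Dmd* in the annotation, 43 were tested, with a median log2 ratio of -0.22. At least 2-fold higher was *Bgn*, which encodes the matrix proteoglycan biglycan, at 125 CPM in DBA and 367 CPM in D2-*mdx*, and lower was *Atp2b3*, a calcium pump of the plasma membrane, at 10.1 CPM in DBA and 0.606 CPM in D2-*mdx*. *Atp2b3* had a log2 ratio of -4.06 here and -5.06 in *mdx* over B10.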

How the data were processed

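The authors sequenced 10X Genomics libraries and deposited UMI counts per gene and barcode, made with Cell Ranger 3.0.1 on mm10 according to the submitters' processing notes. The step that chose the barcodes before deposit is not given in the sources used here. The deposited counts were summed over the cells of each library and divided by their total to give CPM. Genes with at least 10 CPM in either library were taken, and 2-fold was the limit for a call. Ratios and shares have exact binomial (Clopper-Pearson) and differences of shares Newcombe intervals at 95%, for counting error only. No test was possible with 1 library a strain, and no doublet caller was run; cells of highest UMI total were left out as an alternative. Named were *Dmd*, the rule genes, the 15 highest and 15 lowest genes at 50 CPM or more, leaving out gene models without a name, up to 4 members of each list with the largest ratios, and genes of opposite sign in *mdx* over B10. A few items are not reported here. Further list members were named for their role after their values were seen. Members and lists were chosen with earlier results of these data known. Ratios were tested on simulated data. Python 3.11.15, numpy 2.4.6, scipy 1.17.1, pandas 2.3.3, and size factors of edgeR 4.0.16 and DESeq2 1.42.0 in R 4.3.3 were used.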

Additional observations from a re-analysis of the deposited data

Results flagged for a closer look

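A few genes at 50 CPM or more were beyond 2-fold in D2-*mdx* over DBA and had the opposite sign in *mdx* over B10. These differences between the backgrounds were not tested, since each rests on single libraries. *S100a9* and *S100a8*, calcium-binding proteins of neutrophils, had log2 ratios of 1.87 and 1.69, from 50.7 to 186 CPM and from 50.3 to 162 CPM. *S100a9* was at 19.4 CPM in B10 and had no UMI in *mdx*, and *S100a8* was at 19.9 and 0.112 CPM. Of their UMIs in D2-*mdx* myogenic cells, 97.96% and 97.9% lay in 50 cells, and without cells bearing markers of other types the ratios were 0.37 and 0.52. Both genes are among the white blood markers by which cells were left out. Their remaining levels were thus limited by that choice, and the smaller ratios are not read as a result.

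*Ier3*, an immediate-early gene, had 1.14 in D2-*mdx* over DBA and -0.15 in *mdx* over B10, and *Nfkbia*, the inhibitor of NF-κB, 1.13 and -0.05. Among lower genes, *Arhgap28* had -1.13 and 0.16, and the transcription factor *Maf* -1.15 and 0.07. *Acsl3*, which activates long-chain fatty acids, had -2.05 and 0.05, with 99.9 CPM in DBA and 24.1 CPM in D2-*mdx*, 44.7 CPM in B10 and 46.3 CPM in *mdx*.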

How the results depend on the processing

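Against 538 higher and 434 lower genes, the counts were 1356 and 1313 when cells with at least 2 UMIs of any of 6 other cell types were left out, which kept 18 DBA and 343 D2-*mdx* cells, 236 and 247 with 10 CPM in both libraries (chosen after seeing the data), 177 and 173 with a minimum of 50 CPM, and 3879 and 2788 with none. With at least 500 genes and no upper limit 761 genes were higher and 779 lower. The difference in cycling cells, 5.11 percentage points, was -1.47 without the 6 other types, 3.15 without pericyte, glial, endothelial or white blood markers (chosen after seeing the data), 9.95 with at least 500 genes and no upper limit, 3.65 without the cells of highest UMI total, 4.08 and 7.58 at 2000 and 5000 UMIs, 8.75 unthinned, and 6.63 and 3.79 with at least 2 and 5 mitosis UMIs. The *Myog* difference, 7.54, was 3.50, 6.38, 6.17, 10.2 and 11.9 for the 6 types, the 4 types, 2000, 5000 and no thinning, and 3.85 with at least 2 *Myog* UMIs. Without the 6 types the intervals were -21.7 to 3.81 for cycling and -14.2 to 6.01 for *Myog*, so neither gives a direction. With at least 500 genes and no upper limit *S100a9* and *S100a8* had log2 ratios of -1.18 and -0.90. Without the 6 types *Tgfbi* and *Klf2* had -0.38 and -0.32, and the glial list a median of -0.998. The growth factor list had -0.33 with a minimum of 50 CPM. The cause was not tested. For the genes named by rule 1583 ratios were recomputed, and a reversal was counted only where the main ratio was beyond 2-fold. The ratios of *S100a9*, *S100a8*, *Tgfbi* and *Klf2* above were those reversed. *Mirg* had no finite ratio without the 6 types, and TMM and DESeq2 size factors reversed none. *Cadm1*, named outside these rules, is not in this count and changed sign without the 4 types. No paired analysis was possible because each strain has 1 library. Depth limits cells, not sums: D2-*mdx* cells were shallower, and shares hold for thinned cells.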

Other observations

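Pericyte-marker cells without a UMI of the rule genes, 418 in DBA and 841 in D2-*mdx*, held some of the same differences. *Timp1* was at 2.92 CPM in those of DBA and 105 CPM in those of D2-*mdx*, and *Spp1* at 0.417 and 47.4 CPM. *S100a6* was at 3078 and 3679 CPM, and *Vim* at 2451 and 3452 CPM. Both were short of 2-fold there, unlike in the myogenic cells. *Atf3* was at 272 and 597 CPM, *Id3* at 512 and 1023 CPM, *Cox5a* at 136 and 285 CPM and *Ldha* at 204 and 399 CPM. The differences of *Timp1*, *Spp1*, *Atf3*, *Id3*, *Cox5a* and *Ldha* were thus not particular to the myogenic cells. *Gpx1*, at 420 and 366 CPM, and *Ier5*, at 185 and 159 CPM, were not higher in those of D2-*mdx*. *Cdkn2a* was at 0.209 and 3.06 CPM, and *Cdkn1c* at 51.6 and 58.01 CPM, so the *Cdkn1c* difference of the myogenic cells was not seen in them. *Meg3* was at 911 and 639.6 CPM. These are values of 1 library each, with no test.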
